A study of Mus musculus with 12 samples.

Results

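Mouse chromosome 12 outside the immunoglobulin heavy chain locus Igh was read by 6957 array regions, out of 161460 on the autosomes and 170305 on the whole array. Members were all regions, each a spot sequence of at most 60 bases, that start before position 114300000 or after position 117300000 of the chromosome in the mouse build mm9. The 189 regions between these positions, where lymphocytes rearrange Igh, were left out. Of the members, 6677 lay before that window and 280 after it, from chr12:3102541 to chr12:121252543, with a median spacing of 11.0 kb. They carried 718 gene names, and 2362 members lay in intervals with no gene name. The chromosome was chosen because carcinomas and lymphomas of this series differ on it, so every statement below that sets carcinomas against lymphomas is a description without a test.

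Genomic DNA of 12 mouse tumours, 4 renal cell carcinomas and 8 malignant lymphomas, was labelled with Cy5 and hybridised, 1 array per tumour, with a Cy3-labelled reference from normal kidney of C57BL/6 mice. All tumours arose in C57BL/6 mice that either lacked Mutyh (KO) or were wild type (WT), and each is named here by genotype and animal number. Mutyh is a DNA glycosylase that removes adenine paired with oxidised guanine, and the knockout is labelled as such with no allele or driver named. Treated animals had received ferric nitrilotriacetate (Fe-NTA), an iron chelate that damages the proximal tubules of the kidney, intraperitoneally, 5 times weekly for 12 weeks. The dose of iron was 3 mg per kg during week 1 and 5 mg per kg during the remaining 11, and the treated groups began with 20 males each. The labels place the end of the experiment at about 120 weeks. The carcinomas were KO1080, KO1097, KO1134 and WT1179, all from treated mice. The lymphomas were KO1077 and KO1111 (treated knockouts), KO1414 (untreated knockout), WT1113, WT1114 and WT1121 (treated wild types), and WT1405 and WT1420 (untreated wild types). The 4 carcinomas shared slide 1, KO1077, KO1111, WT1113 and WT1114 shared slide 2, and KO1414, WT1121, WT1405 and WT1420 shared slide 3. Tumour type and slide 1 cannot be told apart.

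Each array had 174305 spots, of which 99.856% to 99.938% were well above background, and the spread between neighbouring regions was 0.115 to 0.169 on the log2 scale. The Mutyh region at chr4:116490496-116490555 read between -3.21 and -2.39 in the 6 knockout tumours and between -0.75 and 0.14 in the 6 wild types. The genotype labels thus matched the values at this region. The other Mutyh region, at chr4:116480656-116480715, did not separate the genotypes. It read between -0.58 and 0.26 in knockouts and between -0.82 and 0.20 in wild types. DNA arrays carry no expression markers, so the labelled tumour types were not checked against cell type markers.

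In array comparative genomic hybridisation, the ratio of tumour to reference DNA at a region follows the number of copies of that region per tumour genome. A stretch that has lost a copy in every cell gives a ratio well below that of the rest of the genome, and normal cells in the sample pull it back towards the reference. Loss of a whole chromosome leaves a flat low profile from end to end, whereas a break within the chromosome leaves a step between neighbouring regions. Values below are log2 ratios of tumour over reference after the most frequent autosomal value of each array was set to 0.

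The sequences of regions at the breaks and of the main single-region findings are given first, to show what was hybridised there. They are the array sequences as deposited, with mm9 positions. No letters are capitalised, because no motif in them was singled out. The first pair lies on either side of the KO1097 break, at chr12:16975322-16975381 and chr12:16983593-16983652, and the second pair on either side of the KO1134 break, at chr12:88912577-88912636 and chr12:89268384-89268431.
KO1097 before: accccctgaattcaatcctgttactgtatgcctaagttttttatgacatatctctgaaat
KO1097 after: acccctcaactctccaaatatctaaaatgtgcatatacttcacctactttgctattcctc
KO1134 before: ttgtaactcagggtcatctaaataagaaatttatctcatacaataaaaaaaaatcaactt
KO1134 after: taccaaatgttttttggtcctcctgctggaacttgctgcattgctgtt

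The next sequences are those of regions that stood alone in a few tumours. The Smoc1 pair, at chr12:82238715-82238774 and chr12:82244990-82245049, read very low in KO1097. The Kif26a region at chr12:113414713-113414767 was low in all 4 carcinomas. The remaining ones are 6 of the 13 regions that set lymphomas WT1113 and WT1114 apart from the other 10 tumours: Nubpl at chr12:53257097-53257156, an unnamed interval at chr12:78087518-78087577, Kcnk10 at chr12:99778163-99778222, Eml5 at chr12:100122066-100122125, Ttc8 at chr12:100168918-100168977 and an unnamed interval at chr12:100372565-100372624.
Smoc1 first: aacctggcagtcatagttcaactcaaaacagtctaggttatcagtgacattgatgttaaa
Smoc1 second: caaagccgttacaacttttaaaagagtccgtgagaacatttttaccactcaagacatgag
Kif26a: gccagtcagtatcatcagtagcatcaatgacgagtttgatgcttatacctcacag
Nubpl: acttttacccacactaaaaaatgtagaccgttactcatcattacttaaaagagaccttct
unnamed 78087518: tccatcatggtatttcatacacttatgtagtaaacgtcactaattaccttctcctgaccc
Kcnk10: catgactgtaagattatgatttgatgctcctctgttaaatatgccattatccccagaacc
Eml5: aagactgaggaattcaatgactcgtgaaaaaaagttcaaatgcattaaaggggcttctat
Ttc8: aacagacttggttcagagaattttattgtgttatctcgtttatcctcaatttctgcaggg
unnamed 100372565: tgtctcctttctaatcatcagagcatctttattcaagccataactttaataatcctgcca

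All 4 carcinomas had lost chromosome 12 DNA, 3 of them over the whole chromosome and KO1134 over its first 85.8 Mb. The mean level over all members was -0.42 for KO1080, -0.62 for KO1097, -0.22 for KO1134 and -0.71 for WT1179. The group mean was -0.49 ± 0.22 (SD, n = 4), and every carcinoma lay below every lymphoma, whose levels ran from -0.01 to 0.16. The spread along the chromosome, as the SD of 13 windows of 10 Mb, was 0.015 in KO1080 and 0.021 in WT1179. It was 0.12 in KO1097 and 0.14 in KO1134, the carcinomas with a break. The 3 knockout carcinomas averaged -0.42 ± 0.20 (SD, n = 3), and the only wild-type carcinoma was the lowest of the 4. With 1 wild type, genotypes were not compared among carcinomas.

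The chromosome was divided into segments of equal level, and a segment of at least 5 regions with a mean at least 0.25 from 0 was called lost or gained. In KO1080, 100% of members lay in a called loss, against 10.6% of all autosomal regions of that tumour. The share was 99.96% in KO1097 (18.5% of autosomal regions), 72.1% in KO1134 (33.7%) and 99.97% in WT1179 (15.0%). The few missing members of KO1097 and WT1179 were regions with no usable spot or the short deep segment in Smoc1. Since the chromosome was picked for its loss, these shares describe extent only. In windows of 1 Mb, 112 of 113 were below -0.25 in KO1080, all 113 in KO1097 and in WT1179, and 81 of 113 in KO1134. The window nearest to 0 in both KO1080 (-0.23) and WT1179 (-0.41) was centred 17.5 Mb from the first region and held 4 regions. KO1097 had -0.35 and KO1134 had -0.10 there, so the window was shallower than its neighbour at 18.5 Mb in each carcinoma.

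**Figure D1:**
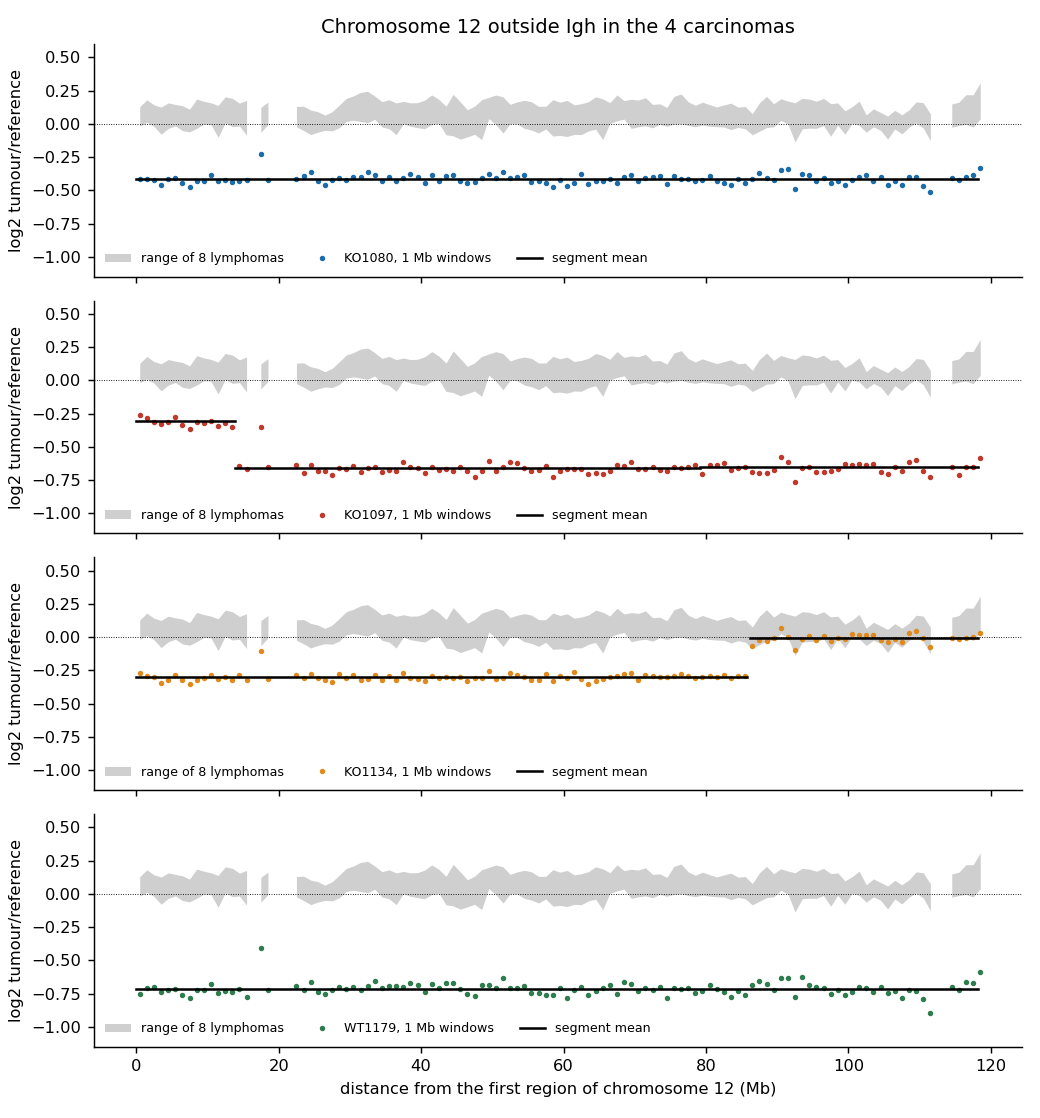
Log2 ratio of tumour over reference (y axis) along chromosome 12 outside Igh, as distance in Mb from its first region (x axis), for each carcinoma: points are means of 1 Mb windows with at least 3 regions, black lines are segment means of at least 20 regions, and the grey band is the range of the 8 lymphomas. KO1080 and WT1179 are flat at -0.42 and -0.71, KO1097 steps from -0.30 down to -0.66, and KO1134 steps from -0.30 up to -0.0035.

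KO1097 had a break inside the gene Rock2. The mean of 777 regions before it was -0.30 and that of 3650 regions after it was -0.66, a step of -0.36. The last region at the upper level and the first at the lower one both carry the name Rock2, so the break fell within an interval of 8.21 kb of that gene. Over 20 regions on each side, the level was -0.30 ± 0.12 (SD) before and -0.65 ± 0.080 after, a difference of -0.35. The same difference was 0.027 to 0.063 in the other 3 carcinomas and -0.12 to 0.027 in the lymphomas. KO1097 alone therefore stepped at this place, and its break fell in the same gap under each of 13 settings.

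KO1134 had a break at a place with few regions, within a gap of 356 kb. The last lost region lies in transcript ENSMUST00000095510 and the first kept one in ENSMUST00000169939, as the array names them. The mean was -0.30 over 5015 regions before the break and -0.0035 over 2128 after it, Igh included, a step of 0.30. Over 20 regions on each side, the level was -0.29 ± 0.16 (SD) before and -0.034 ± 0.14 after, a difference of 0.26. In the other 3 carcinomas it was 0.013 to 0.092, and in the lymphomas -0.12 to 0.014. The break of KO1134 fell in the same gap under 11 of 13 settings and 99.2 kb earlier under the others, normexp background correction and probes well above background on every array. No annotation of build mm9 was used here, so exons and introns at the breaks are not given.

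The loss shared by the 4 carcinomas ran from the first region to the KO1134 break, chr12:3102541-88912636. It held 5010 members, or 72.0% of them, against 9.09% of autosomal regions lost in all 4 carcinomas. The 1939 members beyond the break were lost in KO1080, KO1097 and WT1179. This extent depended on where 0 was set. When arrays were centred on their median instead, the KO1134 segment no longer reached -0.25, and 0 members were lost in 4 carcinomas while 6952 were lost in 3.

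The level of a loss can be restated as the share of cells that lost 1 of 2 copies, if the rest of the genome has 2 copies and the array does not compress ratios. By the level of the whole chromosome, that share was 50.1% for KO1080, 69.9% for KO1097, 28.1% for KO1134 and 78.1% for WT1179. The figures for KO1097 and KO1134 average stretches at different levels, so they are not the share of cells with any loss. The breaks divide the chromosome into 3 stretches, of 13.9 Mb, 71.9 Mb and 32.0 Mb. In KO1080 the share was 50.9%, 49.9% and 50.1% along these stretches, and in WT1179 it was 79.2%, 77.9% and 78.2%. The stretches of each of these tumours lay within or at the edge of the range that 1 SD of the 10 Mb windows gives for the middle one, 48.6% to 51.1% in KO1080 and 76.7% to 79.2% in WT1179. In KO1097 the first stretch stood at 38.1%, against 73.5% and 73.4% for the others. In KO1134 the first stretches stood at 38.1% and 37.6%, and the last at 0.65%, where 1 SD of the windows spans -2.2% to 3.5%.

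Within a tumour, the depth of the chromosome 12 loss was close to that of its other losses, apart from the first stretch in KO1097. In KO1080 the chromosome 12 loss stood at -0.42 and the 3 losses of at least 5 Mb on chromosome 4 between -0.45 and -0.42. WT1179 had -0.71 on chromosome 12, -0.74 and -0.72 on chromosome 4, and 5 losses on other autosomes between -0.72 and -0.71. KO1134 had -0.30 on chromosome 12, -0.30 to -0.28 on chromosome 4, and 9 losses on other autosomes between -0.31 and -0.29. KO1097 held called losses at 2 depths. Its deeper chromosome 12 segments, at -0.66 and -0.65, matched chromosome 4 (-0.68 to -0.63) and most losses elsewhere. Its shallow first stretch of chromosome 12, at -0.30, had a counterpart only in a segment of 6.67 Mb on chromosome 10 at -0.29, or 36.3% of cells under the same assumption. No test was made, since chromosome 4 was chosen on the same contrast.

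**Figure D2:**
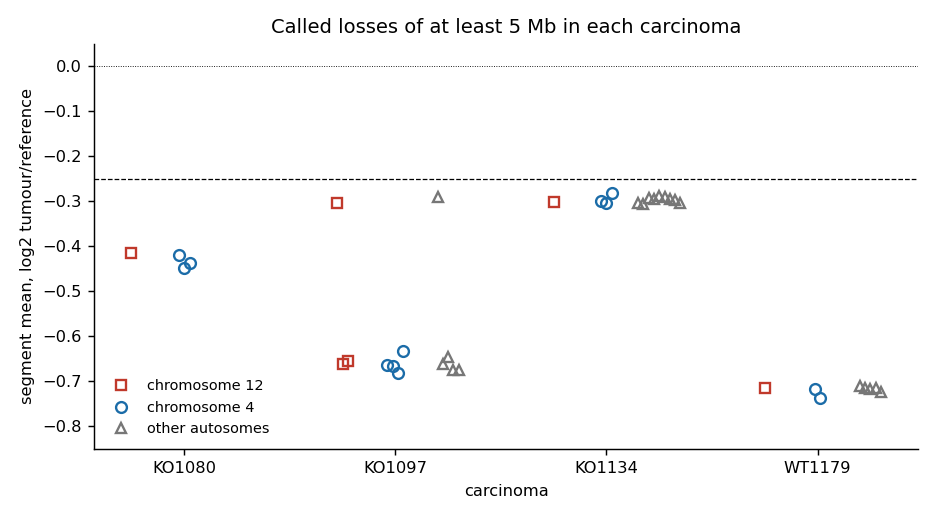
Mean log2 ratio (y axis) of each called loss of at least 5 Mb and 100 regions in the 4 carcinomas (x axis), with squares for chromosome 12, circles for chromosome 4 and triangles for other autosomes; the dashed line is the calling limit of -0.25. The called losses of a tumour lie at 1 level, except in KO1097, where 1 chromosome 12 segment and 1 segment of another autosome lie near -0.30. Losses shallower than the limit cannot appear here.

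KO1097 also carried a much deeper change inside Smoc1, which encodes a secreted calcium-binding glycoprotein of basement membranes. Its 2 neighbouring regions there read -2.47 and -3.13, which is 18.0% and 11.4% of the reference signal. Whether fewer copies or a sequence change under the probes gave these values was not tested. The Smoc1 regions on either side read -0.87 and -0.60, or 54.8% and 66.1% of the reference. The low stretch thus spans at least 6.34 kb and at most 28.9 kb, and it lies within the 15 regions of that gene. In the other 11 tumours these regions read between -0.64 and 0.16 and between -0.71 and 0.27. This was the only place on chromosome 12 where KO1097 stood at least 1 from all other tumours after each tumour's local level was subtracted. The search for such single regions was chosen after the values had been seen.

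Of the 718 genes named on the members, the number with a mean below -0.25 was 667 in KO1080 (11.2% of autosomal genes were as low), 684 in KO1097 (17.8%), 351 in KO1134 (22.0%) and 711 in WT1179 (16.1%). Before the KO1134 break lie 496 of these genes, and 348 of them were below -0.25 in KO1134, with a median of -0.29. Of the 222 genes after the break, 3 were, with a median of 0.015. The same 222 genes had medians of -0.41 in KO1080, -0.66 in KO1097 and -0.72 in WT1179. In the mean of the lymphomas, 0 genes on either side were below -0.25, with medians of 0.053 and 0.039. That mean smooths single tumours, so its count is not comparable with those of single carcinomas. In single lymphomas, the genes of all 718 below -0.25 numbered 4 in KO1077, 8 in KO1111, 0 in KO1414 and 13 in WT1113. They numbered 16 in WT1114, 7 in WT1121, 8 in WT1405 and 9 in WT1420. In all 4 carcinomas 342 genes were below -0.25 (6.23% of autosomal genes were), and for 502 genes every carcinoma lay below every lymphoma (10.3%). Nothing is read from these counts, or from those of the gene lists that follow, beyond the extent of the loss.

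Of 58 listed genes, 46 had regions among the members. Medians over the 46 were -0.40 for KO1080, -0.66 for KO1097, -0.18 for KO1134 and -0.71 for WT1179, close to those over all 718 genes (-0.41, -0.64, -0.25 and -0.72). In the lymphomas their median was 0.054, against 0.048 over all 718. In all 4 carcinomas 21 of the 46 were below -0.25 (342 of all 718 were). Every carcinoma lay below every lymphoma for 28 of the 46 (502 of 718). The order of genes along the chromosome decided on which side of a break each fell. Values of genes with 1 region carry the spread of a single spot.

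Among genes known as tumour suppressors, 9 of 10 were found. Dnmt3a, a DNA methyltransferase that sets new methylation marks, lies before the Rock2 break and over its 12 regions KO1080 had -0.46, KO1097 -0.32, KO1134 -0.34 and WT1179 -0.83. It was between -0.06 and 0.09 in the lymphomas. It is thus among the genes in the shallow part of KO1097 and in the lost part of KO1134. Numb, which restrains Notch signalling, read -0.46, -0.64, -0.27 and -0.67 in the same order, and between -0.02 and 0.22 in lymphomas. Max, the partner of Myc on DNA, read -0.44, -0.68, -0.28 and -0.83 over 2 regions. These lay in the stretch that all 4 carcinomas had lost.

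Other suppressors lie beyond the KO1134 break. Dicer1, which cuts microRNA precursors, had -0.40, -0.73, -0.023 and -0.77, again in the order KO1080, KO1097, KO1134 and WT1179, against 0.05 to 0.19 in lymphomas. Bcl11b, a transcription factor needed for T cell development, read -0.38, -0.60, 0.016 and -0.66, against -0.02 to 0.15 in lymphomas. Traf3, an adaptor that restrains noncanonical NF-kB signalling, read -0.38, -0.61, 0.041 and -0.72 over 13 regions. In these genes KO1134 lay at or near the lymphomas, and only the other 3 carcinomas were low. Of the 9 suppressors found, 5 were below -0.25 in all 4 carcinomas (342 of all 718 genes of the chromosome were) and 7 had every carcinoma below every lymphoma (502 of 718).

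Of 12 listed genes of growth and transcription, 7 were found, and 4 were below -0.25 in all 4 carcinomas, where 342 of the 718 genes were. Sos2, an exchange factor that activates Ras, had levels of -0.51, -0.68, -0.29 and -0.77 in KO1080, KO1097, KO1134 and WT1179 over 8 regions. Etv1, a transcription factor of the ETS family, read -0.35, -0.65, -0.30 and -0.63. Akt1, a kinase of growth factor signalling, lies beyond the KO1134 break and was read by 1 region, at -0.55, -0.73, -0.036 and -0.69. Jag2, a Notch ligand, lies beyond it too, and its 2 regions gave -0.34 in KO1134, unlike the segment around it. Id2, an inhibitor of helix-loop-helix factors, had 1 region and read nearer to 0 than its surroundings in all 4 carcinomas, with -0.11, -0.41, -0.15 and -0.38 in the same order as Sos2.

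Hif1a, the oxygen-regulated transcription factor that VHL loss stabilises, was at -0.45, -0.74, -0.38 and -0.79 in KO1080, KO1097, KO1134 and WT1179 over 4 regions. In the lymphomas it ran from 0.04 to 0.35, with the highest value in KO1414. Six4, a homeobox gene of kidney development, read -0.35, -0.63, -0.17 and -0.65 over 2 regions, and 2 of the 4 genes on this list were found. Both had every carcinoma below every lymphoma, as did 502 of the 718 genes of the chromosome.

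All 6 listed genes of DNA repair and replication were found. Fancm, a helicase of the Fanconi anaemia pathway, read -0.44, -0.69, -0.35 and -0.80 in KO1080, KO1097, KO1134 and WT1179. Mlh3, a mismatch repair protein, read -0.28, -0.55, -0.12 and -0.54, the shallowest of the multi-region genes on this list. Of the 6, 4 were below -0.25 in all 4 carcinomas, against 342 of the 718 genes. Xrcc3, beyond the KO1134 break, had 1 region with 0.20 in KO1134 and 0.12 to 0.48 in the lymphomas.

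The imprinted Dlk1-Meg3 domain lies wholly beyond the KO1134 break, and 4 of its 6 listed genes were found. Meg3, a maternally expressed noncoding RNA, had -0.50, -0.69, -0.022 and -0.89 in KO1080, KO1097, KO1134 and WT1179. Rian, another noncoding RNA of the domain, read -0.31, -0.57, -0.018 and -0.60 over 5 regions. These arrays count copies without telling the parental allele. In none of the 4 genes did every carcinoma lie below every lymphoma, since KO1134 kept the domain. Mirg, a host of microRNAs read by 1 region, ran from -0.29 in WT1121 to 0.22 in KO1414 among the lymphomas.

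Of the very large genes, 9 of 9 were found, with 17 to 166 regions each. Immp2l, a mitochondrial protease gene, read -0.40, -0.67, -0.33 and -0.69 over 94 regions. Mdga2, a neuronal adhesion gene, read -0.41, -0.69, -0.33 and -0.70 over 84. Nrxn3, a neurexin gene just beyond the KO1134 break, read -0.39, -0.71, -0.037 and -0.66 over 166. Ptprn2, between Igh and the end of the chromosome, read -0.43, -0.68, -0.018 and -0.73 over 80. Of the 9 genes, 6 were below -0.25 in all 4 carcinomas (342 of the 718 genes were), and the 3 exceptions (Nrxn3, Foxn3 and Ptprn2) lie beyond the KO1134 break. Among the 9 found genes between Igh and the chromosome end, 0 were below -0.25 in KO1134 and all 9 were in each of the other carcinomas.

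**Figure D3:**
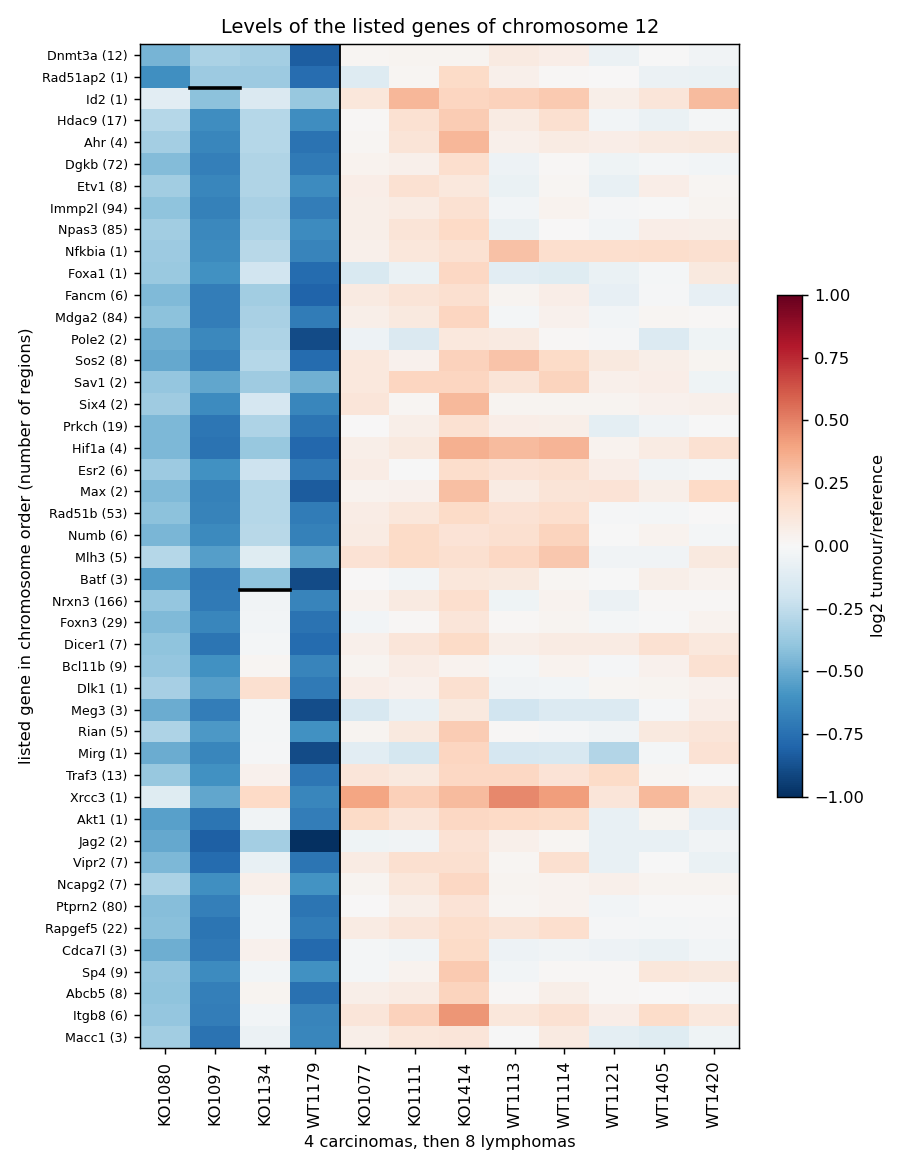
Log2 ratio (colour) of the 46 listed genes found, in chromosome order (rows, with the number of regions in brackets), in the 4 carcinomas and 8 lymphomas (columns); short black bars mark the breaks of KO1097 and KO1134. KO1134 reads -0.40 at Batf, just above its bar, and -0.037 at Nrxn3, just below it. Jag2, below the bar, reads -0.34 in KO1134 and lies lower than the segment around it in each carcinoma.

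Of 9 listed lymphoid genes, 7 were found. Batf, a transcription factor of activated lymphocytes, was the last listed gene before the KO1134 break, with -0.56, -0.72, -0.40 and -0.90 in KO1080, KO1097, KO1134 and WT1179. It read between -0.02 and 0.11 in the lymphomas. Prkch, a protein kinase C gene, read -0.45, -0.72, -0.30 and -0.73 over 19 regions. Ahr, the aryl hydrocarbon receptor, read -0.34, -0.65, -0.29 and -0.74, and 0.02 to 0.33 in the lymphomas. None of the 7 was below -0.25 in a lymphoma.

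Of the 359 genes with at least 3 regions, Kif26a, a kinesin-family gene, was the lowest in carcinomas once the chromosome 12 level of each tumour was subtracted, at -0.48 ± 0.07 (SD, n = 4). It stood at 0.05 ± 0.05 (SD, n = 8) in lymphomas. Its value came from 1 of its 3 regions, whose sequence is given above. In KO1080 that region read -1.80, in KO1097 -1.89, in KO1134 -1.81 and in WT1179 -2.11, against 0.08 to 0.47 in the 8 lymphomas. KO1134 was as low there as the others, although the region lies beyond its break. It was the only member where the 4 carcinomas all stood at least 1 from every lymphoma, as 0.0132% of regions of autosomes other than 4 and 12 did. All 4 carcinomas lay on slide 1, so slide and tumour type cannot be told apart here.

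The next lowest was Exd2, a nuclease gene, at -0.42 ± 0.07 (SD, n = 4). The lymphomas had -0.14 ± 0.08 (SD, n = 8) there. The highest were BC024416 at 0.25 ± 0.09, A830093I24Rik at 0.24 ± 0.15 and Wdr20a at 0.23 ± 0.07. Wdr20a lies beyond the KO1134 break, and its highest value, 0.33, was in KO1134, whose chromosome level includes the loss before it. A830093I24Rik lies before the Rock2 break, and its highest value, 0.40, was in KO1097, whose loss is shallow there.

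At the start of the Igh window, the last 3 members before it, chr12:114273965-114292071, averaged between -0.80 and -0.0031 in the carcinomas and between -0.10 and 0.18 in the lymphomas. The first 3 regions inside read between -0.84 and -0.067 and between -0.18 and 0.14. The last 3 inside read between -0.62 and 0.0052 in carcinomas and between -0.025 and 0.15 in lymphomas. The first 3 members after it, chr12:117307501-117327391, read between -0.64 and 0.030 and between 0.04 and 0.33. In each of the 8 lymphomas they lay above that tumour's chromosome level, as in KO1111, where they read 0.33 against 0.063. Carcinomas showed this too, with -0.31 against -0.42 in KO1080 and -0.55 against -0.71 in WT1179. KO1134 read 0.030, against -0.0035 for the segment beyond its break. KO1097 did not lie above its chromosome level, with -0.64 against -0.62.

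In the lymphomas, chromosome 12 outside Igh was near the level of the rest of the genome, and no part of it was called lost or gained. The levels were 0.038 in KO1077, 0.063 in KO1111, 0.16 in KO1414, 0.033 in WT1113, 0.060 in WT1114, -0.010 in WT1121, -0.0040 in WT1405 and 0.00086 in WT1420. The mean was 0.042 ± 0.054 (SD, n = 8). Called gains and losses covered 0% of members in each lymphoma. Over all autosomal regions they covered 0.246% in KO1077, 0.773% in KO1111, 1.45% in KO1414 and 9.40% in WT1113. They covered 8.77% in WT1114, 4.00% in WT1121, 20.1% in WT1405 and 0.120% in WT1420. KO1414 stood above the other 7, which averaged 0.026 ± 0.030 (SD, n = 7). The 4 lymphomas of slide 2 ran from 0.033 to 0.063 and the 3 wild types of slide 3 from -0.010 to 0.00086, so level moved with slide among these 7, and the part of slide in it was not tested.

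KO1414 was higher than every other lymphoma in 13 of 13 windows of 10 Mb, at 0.12 to 0.23. Chromosome 12 was the highest of its 19 autosomes. A gain of 1 copy in 23.0% of cells would give its level. The calling limit of 0.25 was not reached. At a limit of 0.15, a called gain covered 86.7% of members in KO1414, against 5.14% of all its autosomal regions, and 0% of members in each other lymphoma.

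**Figure D4:**
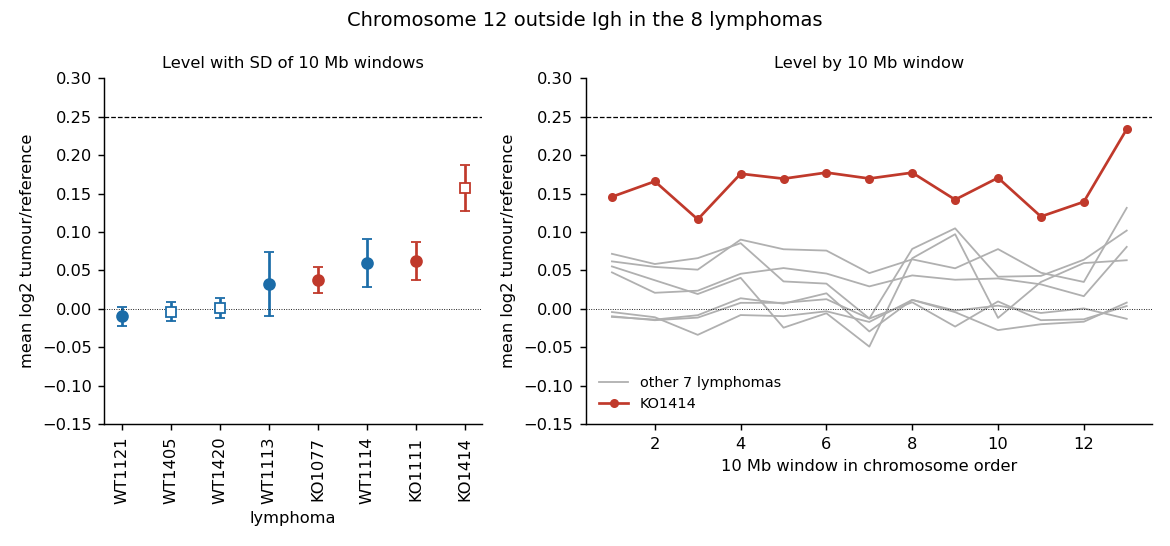
Left, mean log2 ratio of chromosome 12 outside Igh (y axis) in each lymphoma (x axis), with bars for the SD of 13 windows of 10 Mb, red for knockout, blue for wild type, filled circles for treated and open squares for untreated mice. Right, the same ratio by 10 Mb window in chromosome order for KO1414 and the other 7 lymphomas; KO1414 is highest in all 13 windows and stays under the dashed calling limit of 0.25.

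The difference between lymphoma genotypes did not pass the test. The level was 0.086 ± 0.063 (SD, n = 3) in knockouts and 0.016 ± 0.030 (SD, n = 5) in wild types, a difference of 0.070 with an exact two-sided permutation p of 0.0536, or 0.107 after Benjamini-Hochberg adjustment over the 2 lymphoma comparisons. The smallest p this design allows is 0.0179. All 3 knockouts lay above the wild-type mean. With arrays centred on the median the difference was 0.082 and the adjusted permutation p 0.0357, so the call depended on the centring. Within slide 2, where knockouts and wild types number 2 each, the difference was 0.0039, and within slide 3, where KO1414 is the only knockout among 4, it was 0.16. Without KO1414 the difference was 0.034.

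Between treatments the levels were 0.037 ± 0.029 (SD, n = 5) in treated and 0.051 ± 0.092 (SD, n = 3) in untreated lymphomas, a difference of -0.015 with an exact two-sided permutation p of 0.857 before and after adjustment. Of the 3 untreated lymphomas, KO1414 alone was high. Without it the treated lymphomas were higher, by 0.038. In that comparison the untreated lymphomas were all on slide 3 and the treated ones, except WT1121, on slide 2. The part of slide in it was not tested. Of the 5 treated lymphomas, 2 lay above the mean of all 3 untreated ones. On slide 3, the only one with both kinds, treated minus untreated was -0.061 with 1 treated tumour against 3, KO1414 among them. The treated WT1121, at -0.010, lay near the untreated WT1405 at -0.0040 and WT1420 at 0.00086.

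Gene by gene, limma with genotype and treatment as additive terms called 0 of 718 chromosome 12 genes between knockout and wild-type lymphomas, against 12 of 20288 autosomal genes (0.0591%), at a Benjamini-Hochberg adjusted p under 0.05. At an unadjusted p under 0.05 there were 48 chromosome 12 genes, all higher in knockouts, where 4.47% of all genes passed. Without KO1414 that number was 23 of 718, of which 16 were higher, where 577 of all 20288 genes passed. The median difference over the 718 genes was 0.055, against -0.026 over all genes, and -0.0026 without KO1414. The lowest p was that of Kcnk10, a potassium channel gene, at 0.18 ± 0.05 (SE), with a limma adjusted p of 0.976. Kcnk10 holds a region that was very low in WT1113 and WT1114, described with the single regions of that pair, whose part in this difference was not tested.

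For treatment, limma called 0 of 718 chromosome 12 genes against 2 of 20288 (0.00986%). At an unadjusted p under 0.05 there were 88, of which 24 were higher in treated lymphomas, where 12.9% of all genes passed. Mirg had the lowest p, with a difference of -0.30 ± 0.06 (SE) and a limma adjusted p of 0.212. Without WT1121 the fit called 548 genes (2.70% of 20294), 11 of them on chromosome 12. WT1121 is the only treated lymphoma of slide 3, so without it treatment and slide cannot be told apart. With slide as a fixed block and all 8 lymphomas, limma called 1 gene, and 0 on chromosome 12.

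Lymphomas WT1113 and WT1114, 2 treated wild types on slide 2, shared 13 single regions of chromosome 12 that stood at least 1 from all other 10 tumours, after a running median of 201 regions was subtracted from each tumour. That is 0.187% of members, against 0.00139% of regions on autosomes other than 4 and 12, where the pair had 2. On chromosome 4 it had 0. Each of the other 65 pairs of tumours had 0 such regions on chromosome 12. The pair was lower at 11 of the regions and higher at 2. This search and its limit of 1 were chosen after the values had been seen.

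Ttc8, a gene of the ciliary BBSome complex, was the most extreme, at -5.36 in WT1113 and -4.71 in WT1114, against -0.95 to 0.20 in the other 10 tumours. The unnamed region at chr12:100372565-100372624 read -4.20 and -4.39, against -0.72 to 0.14. Kcnk10 read -2.77 and -2.78, and Eml5, a microtubule-associated protein gene, -1.95 and -1.90. At Ttc8 and Kcnk10 the other lymphomas lay between -0.18 and 0.20, near their chromosome level, and at Eml5 they ran from -0.09 to 0.52. At a single region, fewer copies and a sequence change under the probe cannot be told apart with these arrays. Over the 11 lower regions the pair had between 2.43% and 42.7% of the reference signal. The other arrays of slide 2, KO1077 and KO1111, had between 84.1% and 115% there.

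In the opposite direction, the unnamed region at chr12:78087518-78087577 read 2.28 and 2.47 in the pair, against -0.82 to 0.72 elsewhere. Nubpl, a gene of mitochondrial complex I assembly, read 0.85 and 0.88. All 10 other tumours read low there, between -1.82 and -0.71. The pair differed from the reference in the direction opposite to theirs.

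The values of WT1113 and WT1114 were alike at these regions, with a median difference of 0.055 between them and a largest one of 0.65, at Ttc8. The regions spread over 47.1 Mb, chr12:53257097-100372624, among 3069 members, and 5 of them, Kcnk10, Eml5 and Ttc8 included, lay within 0.594 Mb, chr12:99778163-100372624, among 51 members. The 26 members next to the 13 regions read between -0.42 and 0.37 in the pair. Leaving the 13 out, the level inside that stretch was 0.041 in WT1113 and 0.067 in WT1114, and outside it 0.033 and 0.061. The median GC content of the 13 sequences was 36.7%, the same as over all members. The labels give WT1113 and WT1114 as separate animals.

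**Figure D5:**
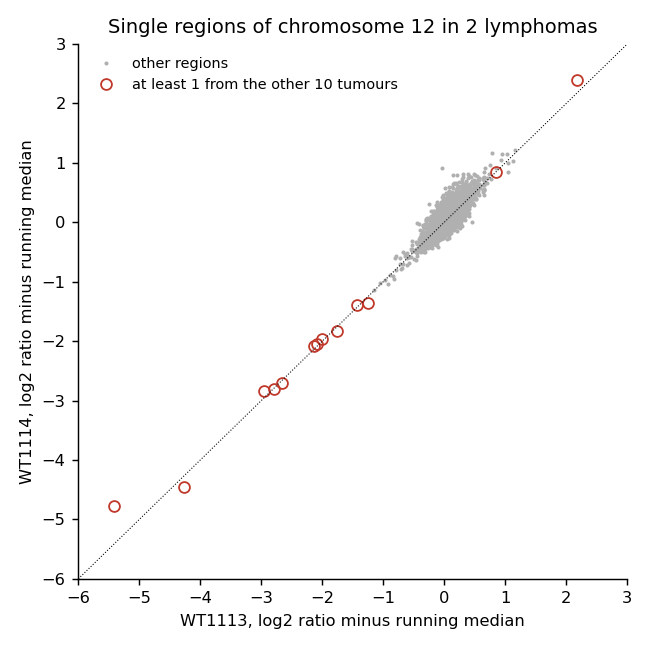
Log2 ratio minus the running median in WT1113 (x axis) and WT1114 (y axis) for each region of chromosome 12 outside Igh; red circles are the 13 regions where the pair stands at least 1 from the other 10 tumours, and the dotted line marks equal values. The red circles lie along the dotted line, the lowest at Ttc8.

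WT1121 had 3 regions of this kind of its own. An unnamed one at chr12:61245209-61245268 read 2.02, a Traf3 region at chr12:112420000-112420059 read 1.59 and a Mark3 region at chr12:112868449-112868508 read -1.59. The other 11 tumours ran from -0.88 to 0.20, from -0.72 to 0.32 and from -0.83 to 0.32 at these places. The single Traf3 region raised the mean of that gene in WT1121, which was 0.19 over 13 regions. On autosomes other than 4 and 12, WT1121 had 28 such regions, 0.0194% of the regions there, against 0.0432% of chromosome 12 members. Its array also had 298 spots marked as outliers, which were left out, against 116 to 188 on the other arrays. KO1080, KO1134, WT1179, KO1077, KO1111, KO1414, WT1113, WT1114, WT1405 and WT1420 had none of their own on chromosome 12.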

How the data were processed

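The authors deposited scanner files whose red and green intensity columns had, per the file headers, been background-subtracted and dye-normalized by Feature Extraction 10.7.1.1, with mm9 positions. The log10 ratio column deposited by the authors and the deposited log2 table of the series served as alternatives. Spots marked as outliers were left out, spots of a probe were averaged, and the log2 ratio of red over green was centred on each array's autosomal mode (kernel width 0.05). Segments came from penalised least squares (per break, 10 times the noise variance times the log of the probe number). A break point was a step of at least 0.2 between segments of at least 5 probes. Segmentation and limma were tested on simulated data. Lymphoma levels were compared with exact permutation tests in Python 3.11.15, and 20288 genes with limma 3.58.1 in R 4.3.3. Genes were named by array names; 507 of 718 matched a symbol.

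Members, lists and rules were chosen with earlier results of these data known. The text names listed genes, genes at break points, genes inside called lymphoma segments, the 3 lowest and 3 highest genes of at least 3 probes against the chromosome level, and genes called by limma; some genes that this rule picks are not reported here. Where no source says that samples of a group are independent, p-values measure the spread between these tumours. The number of arrays limits precision.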

Additional observations from a re-analysis of the deposited data

Results flagged for a closer look

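Of 109 groups of values examined, 9 held a tumour far from the rest of its group by Dixon's ratio at the 95% limit, or 8.26%, where chance gives about 1 in 20. The groups share tumours and are not independent.

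KO1134 had the smallest share of chromosome 12 lost among the 4 carcinomas, 72.1%, against 99.96% in the next. The other 3 were at or near the upper limit of that share, and the chromosome was chosen for its loss in carcinomas, so this gap describes the partial loss and nothing more. Among the 8 lymphomas, KO1414 had the highest chromosome 12 level, 0.16, against 0.063 in the next. It was far above the other lymphomas at 7 of the 46 listed genes found. The chromosome 12 level was not subtracted from gene values, so these 7 flags are not separate from that of the level. Its values were 0.33 for Ahr, 0.33 for Six4, 0.17 for Dgkb, 0.12 for Foxn3, 0.44 for Itgb8, 0.22 for Abcb5 and 0.19 for Cdca7l. The next lymphomas there had 0.13, 0.12, 0.049, 0.039, 0.23, 0.083 and -0.022. These genes lie on both sides of the KO1134 break and on both sides of Igh.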

How the results depend on the processing

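With arrays centred on the median, the cell share was 47.9% in KO1080, 66.6% in KO1097 and 20.0% in KO1134. With that centring the share of chromosome 12 lost in KO1134 was 0%. The genotype difference in lymphomas was 0.082 and past the limit, and limma called 5 genes for treatment. With normexp background correction the cell shares were 54.0% in KO1080 and 86.6% in WT1179, and with the median over probes WT1179 had 80.1%. A calling limit of 0.4 left 0% lost in KO1134, and one of 0.15 called 86.7% gained in KO1414. Each of 13 settings gave 2 break points, in KO1097 and KO1134. Leaving out each lymphoma in turn, the treatment difference ran from -0.043 to 0.038, turning sign without KO1414. WT1121 is the only treated lymphoma that shares a slide with untreated ones. For treatment, limma called 0 to 548 genes and 0 to 11 on chromosome 12 in these fits, the most without WT1121, where treatment and slide cannot be told apart. It called 1 with slide as a fixed block, 0 over all 12 tumours and 0 for genes with at least 2 probes. Over 5 settings, WT1113 and WT1114 stood apart at 9 to 23 regions, the most at a distance of at least 0.7, chosen after seeing the data. Of 467 alternatives in all, 413 were counted as the same as the main result. For limma gene counts this meant an equal or similar number, not a direction or a side of a threshold. No paired analysis was possible because each animal number occurs once. Level differences of a few hundredths lie within what centring moves.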
